A study of Rattus norvegicus with 24 samples.

Results

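The 10 genes described here are Tsc22d3, Fkbp5, Klf15, Foxo1, Foxo3, Fbxo32, Trim63, Ddit4, Cdkn1a and Sesn1, a set of glucocorticoid-responsive, FoxO-related and muscle atrophy genes. They were taken from the deposited table by gene symbol, each as a single row of the 21067 genes listed, and all 10 passed the filter on low values that left 14772 genes for testing. The muscle was quadriceps femoris, from 24 Sprague-Dawley rats of both sexes that were 6 weeks old when obtained, with 6 rats in each of 4 groups and 1 poly(A) mRNA library per rat. Control rats had ordinary feed and no training. Treadmill rats trained for 7 weeks on a treadmill whose load was raised in steps, with an electric stimulus at the end of the channel, and then ran to exhaustion. Rats of catgut group 1 had collagen threads embedded under ether at the acupoints Bai Hui, Qiang Feng, Han Gou, Xie Qi, Qian Shen and Yang Wa and rested for a week. They then did the same training and also ran to exhaustion. Rats of catgut group 2 were treated in the same way with Fei Shu as a further acupoint. All rats were first accustomed to their feed and to the treadmill. Several of these acupoints lie in the hind limbs, no group received anaesthesia or a needle without thread, and no group received thread without training, so these components of the treatment cannot be told apart. The final run lasted until each rat was exhausted, and its length is not in the sources used here. A difference in that length cannot be told apart from the embedding. Rats were killed after the final session, and control rats had no run to exhaustion. Against control, the training and the recent run therefore cannot be told apart.

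Glucocorticoids act on muscle through a receptor that binds DNA and raises the transcription of target genes. Tsc22d3 encodes GILZ, an anti-inflammatory leucine zipper protein, Fkbp5 encodes a co-chaperone that restrains the receptor itself, and Klf15 encodes a transcription factor that promotes amino acid breakdown. FoxO transcription factors, which insulin and IGF signalling through Akt keeps out of the nucleus, drive the muscle ubiquitin ligases Fbxo32 (atrogin-1) and Trim63 (MuRF1) when muscle wastes. Ddit4 (REDD1) and Sesn1 (sestrin 1) restrain the growth kinase complex mTORC1, and Cdkn1a (p21) arrests the cell cycle. Glucocorticoid secretion follows the time of day, and several of these genes are also under the control of the circadian clock.

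Promoter sequences are shown for Tsc22d3, Klf15 and Ddit4, the 3 genes that met the criterion of the study as higher in both catgut groups than in the treadmill group, and for Trim63, whose promoter held letters for both regulators. They are RefSeq sequences of the GRCr8 build, the 250 bases before the start site, 5′ to 3′ on the gene's strand. Capitals mark matches to the letters searched on both strands, which were the glucocorticoid half-site AGAACA, a pair of such half-sites 3 bases apart, the FoxO site TGTTTAC and the E-box CACGTG bound by clock factors.
Tsc22d3, start site 3 of 3 listed, chrX:109010035-109010284, minus strand: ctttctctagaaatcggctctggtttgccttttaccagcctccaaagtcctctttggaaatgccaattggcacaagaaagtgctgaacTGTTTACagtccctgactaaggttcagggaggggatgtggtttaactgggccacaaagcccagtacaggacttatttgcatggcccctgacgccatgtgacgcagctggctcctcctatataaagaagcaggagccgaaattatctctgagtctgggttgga
Klf15, chr4:124522765-124523014, plus strand: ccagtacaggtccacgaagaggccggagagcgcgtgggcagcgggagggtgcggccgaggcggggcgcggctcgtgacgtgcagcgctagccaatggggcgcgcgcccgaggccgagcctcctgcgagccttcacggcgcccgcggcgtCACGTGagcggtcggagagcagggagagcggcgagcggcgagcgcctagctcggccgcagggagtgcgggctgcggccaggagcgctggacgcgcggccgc
Ddit4, chr20:28437038-28437287, minus strand: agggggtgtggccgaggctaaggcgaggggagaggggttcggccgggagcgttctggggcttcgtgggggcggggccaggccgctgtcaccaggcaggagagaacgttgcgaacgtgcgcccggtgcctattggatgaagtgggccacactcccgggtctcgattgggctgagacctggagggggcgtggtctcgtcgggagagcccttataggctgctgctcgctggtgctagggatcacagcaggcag
Trim63, chr5:151816986-151817235, plus strand: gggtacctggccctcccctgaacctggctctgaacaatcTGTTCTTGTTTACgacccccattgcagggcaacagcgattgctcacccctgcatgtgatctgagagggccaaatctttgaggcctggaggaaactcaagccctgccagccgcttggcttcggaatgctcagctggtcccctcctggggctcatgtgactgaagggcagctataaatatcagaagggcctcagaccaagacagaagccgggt
Positions are counted from the start site, with -1 as the last base before it. Start site 3 of Tsc22d3 held TGTTTAC at -162, Klf15 held CACGTG at -101, and Ddit4 held none of these letters. Trim63 held the half-site TGTTCT at -211, directly followed by TGTTTAC at -205. The RefSeq table matched 8 of the 10 genes, Foxo3 and Fbxo32 being the others, with 10 start sites in all, and 3 of the 10 windows of 250 bases before and 50 after the start held a match. Of all 33469 rat promoters in the table, 20.7% held a half-site, 0.0149% a half-site pair, 3.78% the FoxO site and 6.42% the E-box. A match describes letters and not binding. The deposited Tsc22d3 row spans 3612 bp (chromosome X, 111884295 to 111887906, in the build of the table), close to the 3625 bp from start site 3 of RefSeq to the end of the gene, whereas the whole RefSeq gene spans 59980 bp.

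The total count per library ranged from 45945938 to 78278080, and the lowest count of any of the 10 genes in any library was 180, for Foxo1. The summed level of 6 skeletal muscle markers was 62031 to 85643 FPKM (fragments per kilobase of transcript scaled to the mapped fragments of a library, the authors' unit), while 6 leukocyte markers summed to 1.08 to 10.8 FPKM. Slow-fibre markers varied far more, from 15.7 to 4335 FPKM, with medians of 225 FPKM in control rats, 905 in treadmill rats, 1517 in catgut group 1 and 1373 in catgut group 2, and their part in the results below was not tested. Liver markers summed to at most 0.725 FPKM in the catgut groups but reached 181 FPKM in a control and 291 FPKM in a treadmill library, and their part was not tested either. Adipose markers had medians of 22.8, 26.2, 10.9 and 14.1 FPKM and blood markers of 132, 189, 222 and 229 FPKM from control to catgut group 2, also with no test of their part. In whole muscle, fewer cells of a type and less RNA per cell cannot be told apart. The labels give no sex. The study's methods describe as many males as females in each group and cages of a single sex. Y-linked transcripts (Eif2s3y over 1 FPKM) were detected in replicates 4, 5 and 6 of the control, treadmill and catgut 1 groups and in replicates 1 and 5 of catgut group 2, 11 of 24 libraries. Sex, cage and the order of handling cannot be told apart, and values in each class are given beside several of the results. The share of all genes whose classes do not overlap within a group was not computed.

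Averaged over the 24 libraries, Trim63 had the highest level per length at 168 FPKM, followed by Tsc22d3 at 97.4, Fbxo32 at 56.3, Sesn1 at 25.1 and Klf15 at 21.4 FPKM. Ddit4 had 16.4, Fkbp5 15.4 and Cdkn1a 7.25 FPKM, and the FoxO genes were lowest, Foxo1 at 2.58 and Foxo3 at 2.08 FPKM. Cdkn1a, Ddit4, Fkbp5 and Fbxo32 varied most between single rats, with the highest library 8.37 to 9.41 times the lowest, against 2.18 times for Sesn1.

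**Figure D1:**
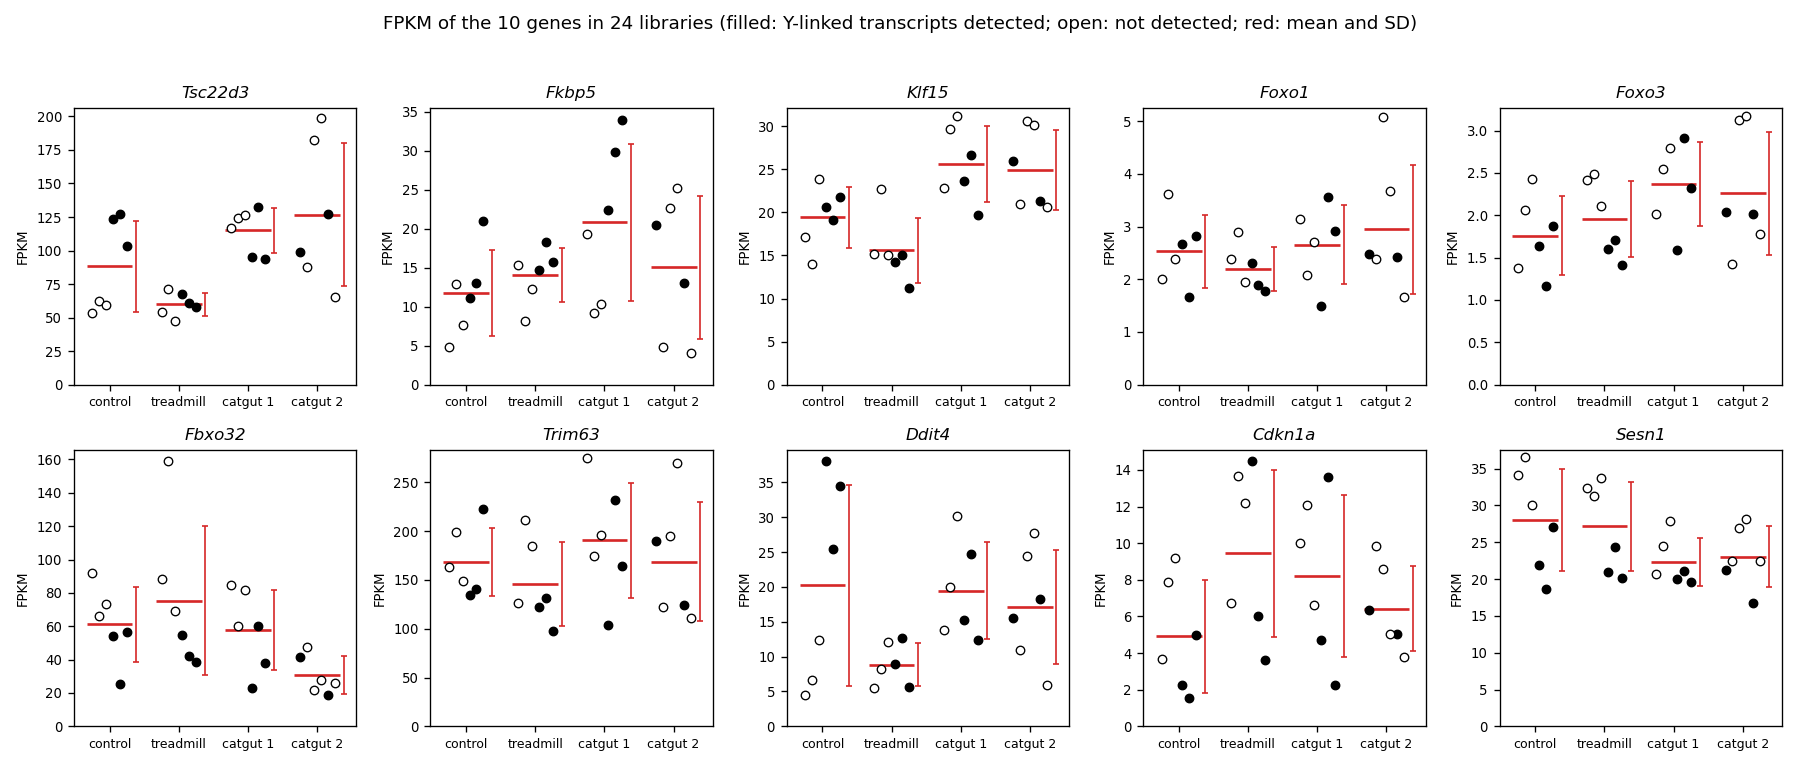
FPKM of each gene (vertical axes, each from 0) in every library by group (horizontal axes), with filled points for libraries with Y-linked transcripts, open points for those without, and red lines and bars for the group mean and SD. All 6 catgut 1 libraries of Tsc22d3 lay above all 6 treadmill libraries, and the control libraries of Tsc22d3 and Ddit4 fell apart by the Y-linked class.

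Between treadmill and control rats, a comparison that asks what training and the run to exhaustion changed, 0 of the 10 genes had an adjusted p under 0.05 by edgeR's quasi-likelihood test or by DESeq2, and 3 had an unadjusted p under 0.05 in edgeR, as did 9.12% of all genes. Over all genes tested, 0.0542% passed the adjusted threshold. By the criterion of the study, a ratio of group mean FPKM above 1.5 or below its inverse together with p below 0.05 before adjustment, 1 of the 10 was called, against 2.85% of all genes, and it was Ddit4, which was lower in the treadmill group. The median log2 fold change was -0.11 over the 10 genes and -0.0020 over all genes.

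Ddit4 (chromosome 20, 29509289 to 29511382) had a lowest, median and highest level of 4.53, 19.0 and 38.1 FPKM in control rats and 5.49, 8.58 and 12.6 FPKM in treadmill rats. The control rats fell into 3 libraries at 25.5 to 38.1 FPKM, those with Y-linked transcripts, and 3 at 4.53 to 12.4 FPKM, those without. All treadmill rats lay within or just above the lower of these ranges. The ratio of means was 0.437 and the log2 fold change -1.13 (SE 0.471, adjusted p = 0.520, exact permutation p = 0.156). The call was lost without control replicate 4, 5 or 6 or treadmill replicate 1, 2 or 6, and with limma in place of edgeR. In the libraries with Y-linked transcripts the log2 fold change was -1.69 (3 against 3, adjusted p = 0.0941), and in those without it was 0.075 (3 against 3, adjusted p = 1.00). The difference between these was -1.78 (SE 0.570, adjusted p = 0.521 by the edgeR interaction term, unadjusted p = 0.0100).

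Tsc22d3 showed the same division among control rats, at 103 to 127 FPKM with Y-linked transcripts and 53.3 to 62.1 FPKM without. Treadmill rats had 57.7 to 67.3 FPKM with and 47.6 to 71.4 FPKM without, so here the classes overlapped. Over all 12 libraries the log2 fold change was -0.52 (SE 0.208, adjusted p = 0.515) and the ratio of means was 0.679, just outside the criterion. It met the criterion without control replicate 1, 2 or 3 or treadmill replicate 2 or 4. Among libraries with Y-linked transcripts the log2 fold change was -0.76 (adjusted p = 0.0871), among those without it was -0.12 (adjusted p = 0.983), and the edgeR interaction term was -0.65 (SE 0.158, unadjusted p = 0.00168, adjusted p = 0.521).

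Klf15 had 14.0, 19.9 and 23.9 FPKM (lowest, median, highest) in control rats and 11.3, 15.1 and 22.8 FPKM in treadmill rats, which gave -0.30 on the log2 scale (SE 0.129, adjusted p = 0.526). In libraries with Y-linked transcripts Klf15 met the criterion as lower, with -0.44 (3 against 3, unadjusted p = 0.0215, adjusted p = 0.248 by edgeR), and without them it had -0.16. Cdkn1a had 1.54, 4.32 and 9.17 FPKM in control rats and 3.60, 9.47 and 14.5 FPKM in treadmill rats. With 3 treadmill rats above every control rat, its log2 fold change was 0.93 (95% interval -0.050 to 1.91, adjusted p = 0.555). Cdkn1a met the criterion as higher in libraries with Y-linked transcripts, with 1.55 (3 against 3, unadjusted p = 0.0416, adjusted p = 0.298 by edgeR), and had 0.56 in those without. The other 6 genes had log2 fold changes between -0.21 for Trim63 and 0.30 for Fkbp5, with adjusted p-values of 0.747 to 0.964. Fbxo32, the atrogin-1 gene, had 25.1 to 92.2 FPKM in control rats and 38.6 to 159 FPKM in treadmill rats, and its log2 fold change of 0.26 was -0.013 without treadmill replicate 2, the library at 159 FPKM.

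The comparisons of the catgut groups with the treadmill group ask what the embedding changed in trained rats. Both use the same 6 treadmill libraries, so they are not independent of each other. In catgut group 1, Tsc22d3 rose and was the only one of the 10 genes with an adjusted p under 0.05 by edgeR, against 0.0474% of all genes. DESeq2 called 3 of the 10, Tsc22d3, Klf15 and Ddit4, and 139 of all genes. At an unadjusted p under 0.05 in edgeR there were 4, and 6.93% of all genes. By the criterion 3 of the 10 were called, all higher (Tsc22d3, Klf15 and Ddit4), against 3.12% of all genes. The median log2 fold change of the 10 was 0.31 and that of all genes -0.011. With Fei Shu added, in catgut group 2, 0 of the 10 had an adjusted p under 0.05 by edgeR, where 0.237% of all genes passed. DESeq2 called 3 of the 10, and 309 of all genes. At an unadjusted p under 0.05 in edgeR there were 4, and 10.7% of all genes. By the criterion 4 of the 10 were called, against 3.76% of all genes, with Tsc22d3, Klf15 and Ddit4 higher and Fbxo32 lower. The medians were 0.19 and 0.0035.

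Tsc22d3 had 47.6, 59.3 and 71.4 FPKM (lowest, median, highest) in treadmill rats, 94.1, 121 and 133 FPKM in catgut group 1, and 65.5, 113 and 199 FPKM in catgut group 2. Its rise in catgut group 1 was 1.92-fold, or 0.91 in log2 units (SE 0.108, adjusted p = 0.00901), and no library of either group entered the range of the other (exact permutation p = 0.00216, the smallest it can give). It ranked 2 of the 14772 genes by p. The log2 fold change stayed between 0.86 and 0.96 with any of the 12 libraries left out, all with an adjusted p under 0.05. Over all 25 alternatives the adjusted p ran from 4.33e-13 to 0.587, and 6 of them were over 0.05, among them one fit over all 4 groups (adjusted p = 0.155) and limma at a pseudocount of 0.1 (adjusted p = 0.0562). In libraries with Y-linked transcripts the log2 fold change was 0.69 (adjusted p = 0.587) and in those without 1.13 (adjusted p = 0.199), from 3 rats against 3 in each, and the edgeR interaction term was -0.42 (SE 0.189, adjusted p = 1.00). For catgut group 2, 5 of 6 libraries lay above every treadmill library, and the sixth, replicate 6, lay within the treadmill range. The log2 fold change there was 1.04 (SE 0.223, adjusted p = 0.0901, exact permutation p = 0.00649).

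Klf15 (chromosome 4, 122365093 to 122377659) had 19.6, 25.2 and 31.1 FPKM in catgut group 1 and 20.6, 23.6 and 30.7 FPKM in catgut group 2, beside the treadmill values above. Leaving aside treadmill replicate 2, at 22.8 FPKM, every treadmill library lay at or below 15.1 FPKM and every catgut library above it. The log2 fold change was 0.70 in catgut group 1 (SE 0.112, adjusted p = 0.0529, exact permutation p = 0.00433) and 0.67 in catgut group 2 (SE 0.127, adjusted p = 0.0580, exact permutation p = 0.00866). Without treadmill replicate 2 both passed the adjusted threshold, as they did without catgut 1 replicate 6 and without catgut 2 replicate 2, respectively. With any other single library left out, neither passed it. The log2 fold change was 0.70 in both Y-linked classes of catgut group 1, and in catgut group 2 it was 0.81 with and 0.55 without Y-linked transcripts, where the criterion was not met.

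Ddit4 had 12.4, 17.7 and 30.2 FPKM in catgut group 1, with 5 of 6 libraries above every treadmill library, and 5.94, 16.9 and 27.8 FPKM in catgut group 2, with 4 of 6. The log2 fold changes were 1.07 (SE 0.251, adjusted p = 0.193, exact permutation p = 0.00433) and 0.90 (SE 0.334, adjusted p = 0.337, exact permutation p = 0.0628). The call in catgut group 2 was lost without catgut 2 replicate 4. With and without Y-linked transcripts the log2 fold changes were 0.85 and 1.29 for catgut group 1 and 0.90 and 0.96 for catgut group 2, and only the last of these did not meet the criterion.

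Fkbp5 (chromosome 20, 7976713 to 8019020) met neither rule in either catgut group over all libraries. It had 8.12, 15.01 and 18.3 FPKM in treadmill rats, 9.14, 20.9 and 34.0 FPKM in catgut group 1, and 4.06, 16.8 and 25.3 FPKM in catgut group 2. In catgut group 1, 4 of 6 libraries lay above every treadmill library and the log2 fold change was 0.53 (95% interval -0.20 to 1.27, adjusted p = 0.855). It met the criterion without catgut 1 replicate 2, where the log2 fold change was 0.69. It also met it in libraries with Y-linked transcripts, at 28.8 against 16.3 FPKM on average and a log2 fold change of 0.72 (3 against 3, unadjusted p = 0.00213, adjusted p = 0.616 by edgeR). In those without, the log2 fold change was 0.16, and the edgeR interaction term was 0.57 (SE 0.482, adjusted p = 1.00). All 3 catgut 1 libraries with Y-linked transcripts, at 22.4 to 34.0 FPKM, lay above the 3 without, at 9.14 to 19.4 FPKM. Catgut group 2 held the 2 lowest Fkbp5 values of the series, in replicates 6 and 2, and 3 libraries above the treadmill range, and its log2 fold change was 0.043 (95% interval -0.88 to 0.97).

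The FoxO genes themselves did not pass either rule. Foxo1 (chromosome 2, 141451234 to 141527016) had 1.78 to 2.90 FPKM in treadmill rats, and its catgut libraries covered this range and more, from 1.49 to 3.56 FPKM for group 1 and from 1.66 to 5.07 FPKM for group 2. Foxo3 (chromosome 20, 46428124 to 46519144) had 1.41 to 2.48, 1.59 to 2.91 and 1.42 to 3.17 FPKM. Their log2 fold changes against treadmill lay between 0.19 and 0.39 with adjusted p-values of 0.538 to 0.894. FoxO activity is set largely by phosphorylation and location in the cell, which mRNA levels do not measure.

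Of the ubiquitin ligase genes, Fbxo32 met the criterion in catgut group 2 and Trim63 in neither group. Fbxo32 (chromosome 7, 98063735 to 98098268) had 38.6, 62.0 and 159 FPKM in treadmill rats, 23.1, 60.1 and 84.7 FPKM in catgut group 1, and 19.0, 26.8 and 47.4 FPKM in catgut group 2. With Fei Shu added, 4 of 6 libraries lay below every treadmill library, and the log2 fold change was -1.26 (SE 0.312, adjusted p = 0.140, exact permutation p = 0.0108). It was -1.001 without treadmill replicate 2. Fbxo32 also met the criterion as lower in catgut group 2 than in the other groups, with -1.005 on the log2 scale against control (SE 0.309, adjusted p = 0.148) and -0.90 against catgut group 1 (SE 0.305, adjusted p = 1.00). In libraries without Y-linked transcripts the log2 fold change against treadmill was -1.75 (4 against 3, adjusted p = 0.260), and in those with it was -0.55 (2 against 3, adjusted p = 0.782), where the criterion was not met. The edgeR interaction term was 1.19 (SE 0.519, adjusted p = 1.00). Libraries with Y-linked transcripts lay below those without in the control, treadmill and catgut 1 groups, at 45.2 against 77.2, 45.1 against 106 and 40.4 against 75.5 FPKM on average, while in catgut group 2 the means were 30.3 and 30.8 FPKM. In catgut group 1 the classes of Fbxo32 barely parted, with 60.136 FPKM as the highest value with Y-linked transcripts and 60.142 FPKM as the lowest without. Catgut group 2 also held fewer libraries with Y-linked transcripts than the other groups. Trim63 (chromosome 5, 152533349 to 152547179) had 97.2, 129 and 211 FPKM in treadmill rats, 103, 185 and 275 FPKM in catgut group 1, and 111, 157 and 269 FPKM in catgut group 2. Its log2 fold changes were 0.38 (95% interval -0.070 to 0.83) and 0.20 (95% interval -0.28 to 0.68).

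Cdkn1a (chromosome 20, 6351458 to 6358864) had medians of 8.32 FPKM in catgut group 1 and 5.69 FPKM in catgut group 2, and its log2 fold changes against treadmill were -0.22 and -0.58 (adjusted p = 0.985 and 0.544). Sesn1 (chromosome 20, 46667121 to 46758305) had 20.2, 27.8 and 33.7 FPKM in treadmill rats, 19.6, 20.9 and 27.9 FPKM in catgut group 1, and 16.7, 22.5 and 28.1 FPKM in catgut group 2. Its log2 fold changes were -0.31 (SE 0.119, adjusted p = 0.571) and -0.26 (SE 0.137, adjusted p = 0.529). Sesn1 libraries with Y-linked transcripts lay below those without in the control, treadmill and catgut 2 groups, with no overlap, while in catgut group 1 the classes overlapped.

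**Figure D2:**
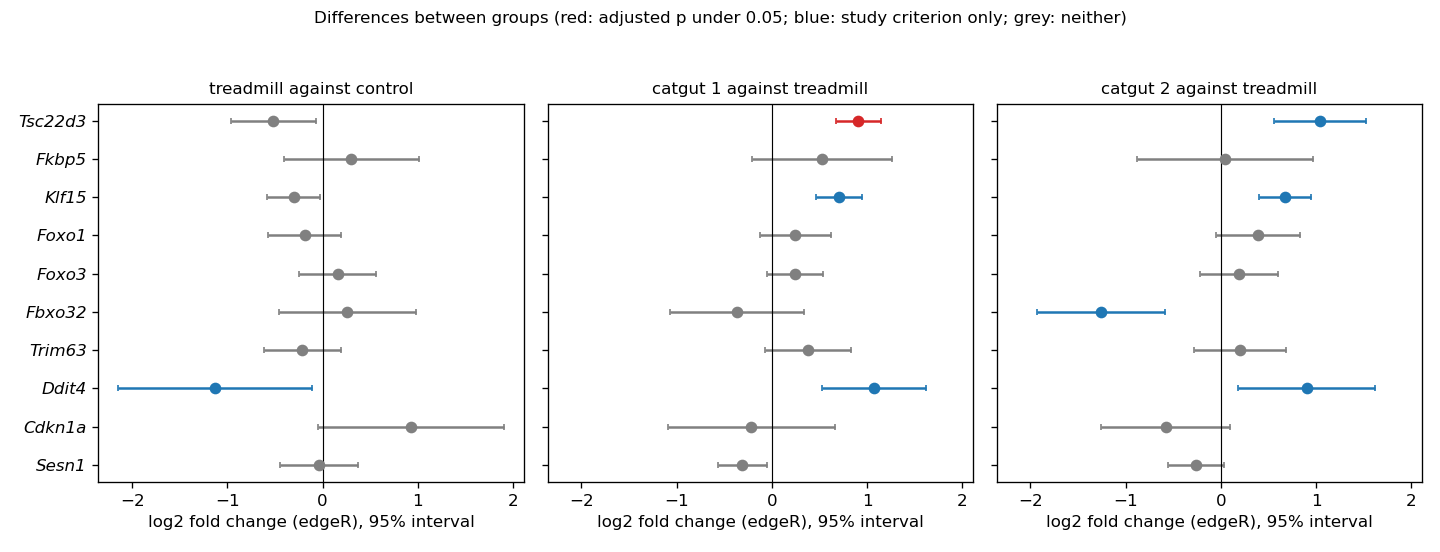
Log2 fold changes of the 10 genes from edgeR (horizontal axis, points) with 95% intervals (bars) in the study's 3 comparisons, red for an adjusted p under 0.05, blue for the criterion of the study alone and grey for neither. Tsc22d3 in catgut group 1 at 0.91 is the single red point, and Fbxo32 in catgut group 2 at -1.26 is the only blue point below 0 in the catgut comparisons.

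Set against untrained control rats, each catgut group had 0 genes among the 10 with an adjusted p under 0.05 by edgeR and 2 with an unadjusted p under 0.05, as did 9.84% of all genes in catgut group 1 and 16.4% in catgut group 2. The share of all genes past the adjusted threshold by edgeR was 0.0203% in catgut group 1 and 0.508% in catgut group 2. DESeq2 gave 0 of the 10 in catgut group 1. In catgut group 2 it gave 1, Fbxo32, beside 695 of all genes. The criterion called 0 of the 10 in catgut group 1, against 4.62% of all genes, and 1 in catgut group 2 (Fbxo32, lower), against 5.96%. Between the catgut groups themselves 0 of the 10 passed the adjusted threshold by edgeR or DESeq2 (1 at an unadjusted p under 0.05 in edgeR, and 3.26% of all genes), against 0.00677% of all genes, and the criterion again called only Fbxo32, against 1.25%. The means of both catgut groups lay close together for Tsc22d3 (mean 115 ± 16.5 FPKM in group 1 and 127 ± 53.5 in group 2, SD, n = 6), Klf15 (25.6 ± 4.37 and 24.9 ± 4.65) and Ddit4 (19.4 ± 6.96 and 17.2 ± 8.17), with differences smaller than either SD.

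The mean level of Tsc22d3 followed the order, from low to high, treadmill (59.8 ± 8.66 FPKM, SD, n = 6), control (88.2 ± 33.8), catgut group 1 and catgut group 2. Of the neighbours in this order, treadmill and control, control and catgut group 1, and both catgut groups all overlapped. Against control, the log2 fold change of Tsc22d3 was 0.40 in catgut group 1 (95% interval -0.046 to 0.84) and 0.52 in catgut group 2 (95% interval -0.093 to 1.13). In libraries with Y-linked transcripts it was -0.061 (adjusted p = 0.943) and 0.087 (adjusted p = 0.852), and in those without it was 1.01 (adjusted p = 0.111) and 1.09 (adjusted p = 0.388). The edgeR interaction terms were -1.08 (SE 0.179, unadjusted p = 8.47e-05, adjusted p = 0.250) and -1.01 (SE 0.480, adjusted p = 0.526). For Ddit4 against control, the log2 fold changes were -0.056 in catgut group 1 and -0.23 in catgut group 2 over all libraries, -0.83 and -0.80 with Y-linked transcripts, and 1.37 and 1.04 without. Its interaction terms were -2.21 (SE 0.500, adjusted p = 0.896) and -1.85 (SE 0.728, adjusted p = 0.521). Klf15 was ordered treadmill, control, catgut group 2, catgut group 1, with log2 fold changes against control of 0.40 (adjusted p = 0.380) and 0.36 (adjusted p = 0.225). Fkbp5 was 0.83 higher in catgut group 1 than in control on the log2 scale (95% interval -0.020 to 1.69, adjusted p = 0.521) and 0.34 higher in catgut group 2 (95% interval -0.67 to 1.36). Foxo3 was 0.41 higher in catgut group 1 (SE 0.183, adjusted p = 0.490).

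Clock genes moved beside these differences. Of 13 clock genes tested, 7 were higher and 2 lower by the criterion in catgut group 1 than in treadmill rats, where 3.12% of all genes met it. Per2 (log2 fold change 2.06, adjusted p = 0.0188 by edgeR) and Cry2 (0.52, adjusted p = 0.0377), both repressors of the clock, passed the adjusted threshold, as did 0.0474% of all genes. Cry2 had a ratio too small for the criterion. Against the same treadmill rats, 8 were higher and 2 lower in catgut group 2 (3.76% of all genes met the criterion). There Per2, Cry2, Arntl and Npas2 passed the adjusted threshold (0.237% of all genes), the last 2, which encode activators of the clock, as lower. In treadmill rats 4 were lower by the criterion than in control rats (2.85% of all genes met it), with Per2, Tef and Nr1d2 leading. Per2 had a median of 6.66 FPKM in control rats, 2.15 in treadmill rats, 8.16 in catgut group 1 and 9.49 in catgut group 2, and Arntl had 1.95, 7.41, 2.18 and 1.41 FPKM. Control rats with Y-linked transcripts had 8.12 to 9.51 FPKM of Per2 and 1.11 to 1.58 of Arntl, and those without had 1.38 to 5.20 and 2.32 to 11.4 FPKM, a division along the same libraries as that of Tsc22d3 and Ddit4. Per1 divided in the same way, while Dbp and Nr1d1, named after their values were seen, overlapped between the classes. How many of all genes divide control rats along these classes was not counted, so these divisions are not read as particular to the genes named. The hour of sampling is not in the sources used here, and the part of the clock in the results was not tested. Slow-fibre markers also divided control rats, at 41.2 to 103 FPKM with Y-linked transcripts within a group range of 41.2 to 1755 FPKM.

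**Figure D3:**
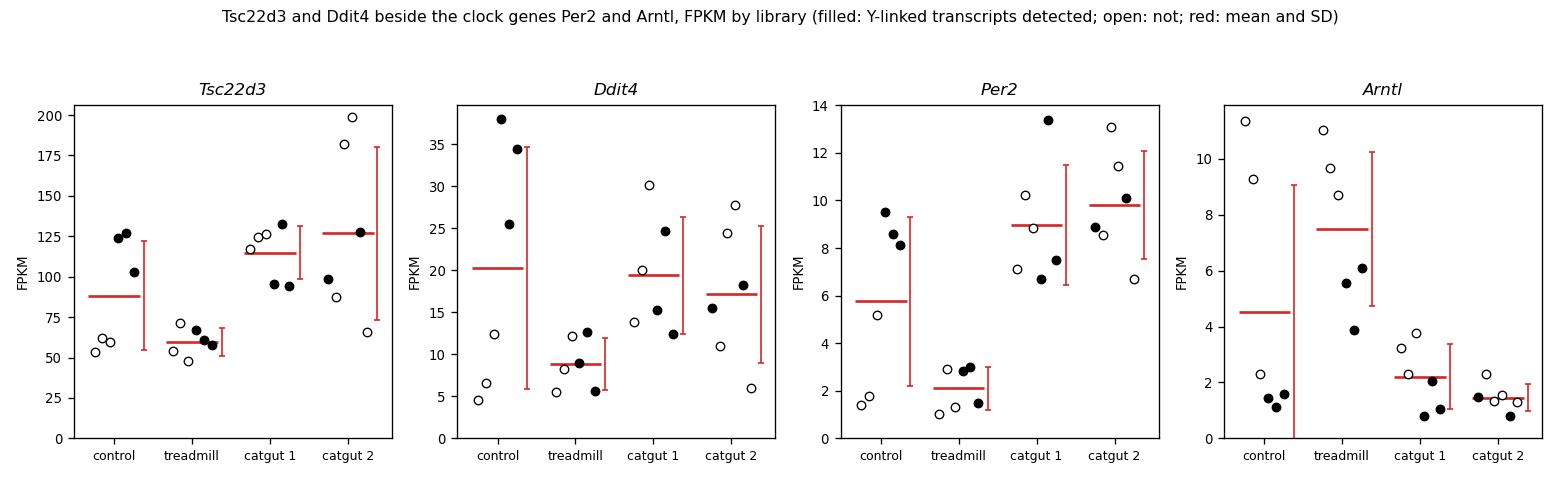
FPKM (vertical axes, each from 0) of Tsc22d3, Ddit4, Per2 and Arntl in every library by group, with filled points for libraries with Y-linked transcripts, open points for those without, and red lines and bars for mean and SD (the bar of Arntl in control rats is cut at 0). Control libraries with filled points are high in Tsc22d3, Ddit4 and Per2 and low in Arntl, and treadmill libraries are low in Per2, at 1.03 to 2.99 FPKM.

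Among 20 other glucocorticoid target genes, several of them also under other control, 4 were higher by the criterion in treadmill than in control rats, where 2.85% of all genes met it. They included Sgk1, a kinase gene (16.9 against 7.45 FPKM on average), Rasd1 and Dusp1, a phosphatase gene (158 against 72.8 FPKM). Per1 is counted both in this list and among the clock genes. Of the 20, 12 had a log2 fold change above 0 and the others did not. In catgut group 1, 4 were higher than in treadmill rats (3.12% of all genes met the criterion), among them Glul, the glutamine synthetase gene (606 against 371 FPKM, log2 fold change 0.69, adjusted p = 0.149), Cebpd and Per1. For catgut group 2, Glul (573 FPKM) and Per1 were higher and Angptl4 lower (3.76% of all genes). Against control, 9 were higher in catgut group 1 (4.62% of all genes) and 5 in catgut group 2 (5.96%), with Errfi1 and Sgk1 first by p in both, and between the catgut groups 1, Cebpd, was lower in group 2. By edgeR 0 of the 20 passed the adjusted threshold in any of the 6 comparisons, with unadjusted p-values as low as 8.41e-05 (Errfi1, catgut group 1 against control). The median log2 fold changes of the list were 0.18, 0.36 and 0.20 in the study's 3 comparisons, beside medians over all genes of -0.0020, -0.011 and 0.0035.

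The receptor gene Nr3c1 was not analysed here. Of 13 other genes for the receptor's chaperones and cofactors and for hormone activation, Nrip1, a corepressor gene, was lower by the criterion in treadmill than in control rats (1.34 against 2.33 FPKM) and higher in both catgut groups than in treadmill rats (2.43 and 2.67 FPKM). The chaperone gene Hsp90aa1 met the criterion as higher than in control in all 3 trained groups, at 13.2 FPKM in control, 25.1 in treadmill, 42.4 in catgut group 1 and 39.2 in catgut group 2, and its log2 fold change of 1.56 in catgut group 2 passed the adjusted threshold (SE 0.259, adjusted p = 0.0267). Of 28 genes of the FoxO family, its kinases and its other targets, Irs2 was higher in catgut group 1 than in control (5.18 against 3.08 FPKM) and Ulk1, an autophagy kinase gene, was lower in catgut group 2 than in treadmill rats (13.7 against 20.5 FPKM). By edgeR 0 of the 28 passed the adjusted threshold, with 0 to 6 genes per comparison at an unadjusted p under 0.05, where the share over all genes was 3.26% to 16.4%. Of 25 other muscle ubiquitin ligase and atrophy genes, 0 met either rule in any comparison, where 1.25% to 5.96% of all genes met the criterion, so that a count of 0 is near the share over all genes, with 0 to 2 genes per comparison at an unadjusted p under 0.05 and median log2 fold changes of -0.059 to 0.016. Of 19 genes related to Cdkn1a, Sesn1 and Ddit4, the p53 target Btg2 met the criterion as higher than control in all 3 trained groups (22.8 FPKM in control and 71.8, 58.7 and 62.9 FPKM in treadmill, catgut group 1 and catgut group 2), Ccng1 was lower in catgut group 2 than in control, and Castor1 was higher in catgut group 2 than in treadmill rats. Of 7 amino acid catabolism genes, Bcat2, a branched-chain aminotransferase gene, was lower by the criterion in treadmill than in control rats (91.8 against 138 FPKM). Per comparison, the criterion called 0 to 2 genes in the lists of 13 and 19 and 0 to 1 in those of 28 and 7, beside 1.25% to 5.96% of all genes. At an unadjusted p under 0.05 by edgeR there were 1 to 6 of the 13, 0 to 6 of the 19 and 0 to 2 of the 7, beside 3.26% to 16.4% of all genes. These calls are not read as results about the lists.

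Within groups, the 10 genes varied together only in part. After each group's mean was subtracted, Pearson's r of log2(FPKM + 1) over the 24 libraries was positive for 36 of the 45 pairs, with a median of 0.378. These values describe the libraries, which share depth and handling, and carry no test. The mean of each Y-linked class was not subtracted, so differences between the classes within a group enter them. The closest pair was Tsc22d3 and Ddit4 at 0.82, followed by Foxo1 and Foxo3 at 0.74 and Foxo1 and Trim63 at 0.71. Fbxo32 ran with Sesn1 at 0.62 and Cdkn1a at 0.59, with Trim63 at 0.53, and against Fkbp5 at -0.44. Among 9371 genes with a symbol and a mean of at least 1 FPKM, the 3 most like Tsc22d3 were Map3k6 (0.83), Smarcd2 (0.81) and Myo6 (0.80), and those most like Ddit4 were Per2 (0.86), Usp2 (0.84) and Sema6b (0.84). Klf15 was most like Acly (0.78), Smarcd2 and Psmc2, and Fkbp5 was most like Ggta1 (0.78), Myf6 and Car14. For Fbxo32 they were Klhl38 (0.89), Ssh2 (0.82) and Sh3bp5 (0.81), and for Sesn1 Ube4b (0.87), Ulk1 (0.85) and Asb4 (0.82). Bach1 was among the 3 closest genes to both Foxo3 (0.86) and Foxo1 (0.81), and Pde4d was the closest to both Foxo1 (0.81) and Trim63 (0.76). The remaining neighbours were Stip1 and Prdm15 for Foxo3, Malt1 for Foxo1, Slc43a1 and Pnpla7 for Trim63, and Ap1b1, Tmem206 and Map1lc3b for Cdkn1a (0.76 to 0.78). The median absolute r of each gene to all 9371 was 0.16 to 0.31.

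**Figure D4:**
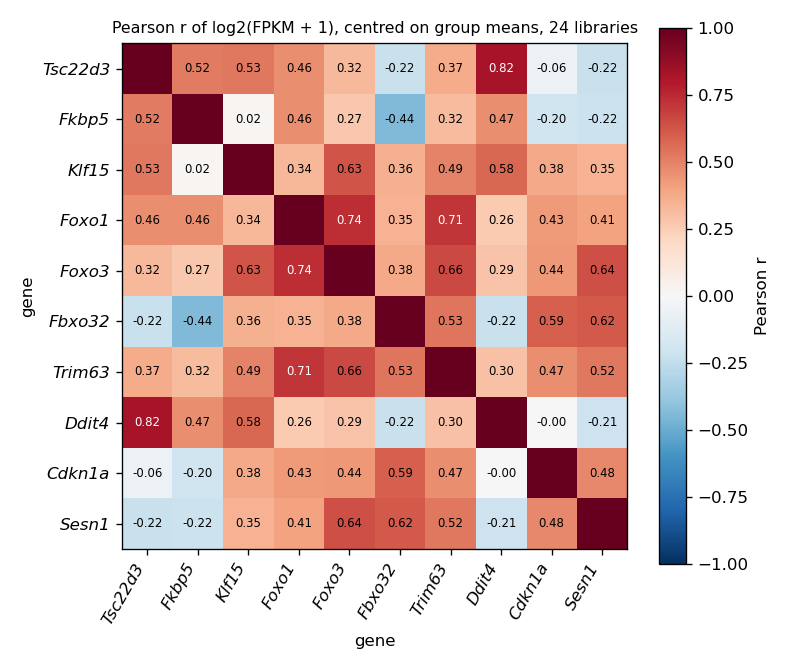
Pearson's r between the 10 genes (rows and columns) of log2(FPKM + 1) with each group's mean subtracted, over 24 libraries, in colour from -1 to 1 and as printed values. Tsc22d3 and Ddit4 at 0.82 form the closest pair, and Fkbp5 and Fbxo32 at -0.44 the most opposed.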

How the data were processed

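Paired-end poly(A) libraries of quadriceps muscle were sequenced by the authors, and the submitters' processing notes name HISAT2 2.0 and StringTie 1.3.0. The genome build is not given in the sources used here. The deposited table lists, for each gene and library, a whole-number count as the authors made it and an FPKM value that the authors normalized to transcript length and mapped fragments. The commonest counts above 0 were 4 and 8, so 1 fragment may add about 4 counts, and dividing by 4 was tried. The labels' extraction protocol speaks of an adipose type, although the tissue is given as quadriceps. Groups came from the labels, whose replicate numbers 1 to 6 carry no stated pairing, and no 2 libraries held identical values.

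TMM normalization and edgeR 4.0.16 (R 4.3.3) were applied to the counts of 2 groups at a time, keeping genes whose mean FPKM reached 0.1, with Benjamini-Hochberg adjustment over all 14772. Each call refers to this two-sided quasi-likelihood test unless another is named. The two-sided exact permutation test compared log2(FPKM + 1) over 924 arrangements. The edgeR fit was tried on counts simulated for catgut group 1 against treadmill. At an adjusted p under 0.05 it recovered 67 of 100 genes changed by a log2 fold of 1 and 88 of 100 changed by 1.5. It also called 9 unchanged genes, so a true change of such size can miss the adjusted threshold. Both sets were changed in the same simulated counts, which eases the adjusted threshold, whereas 7 genes passed it in the data. Recovery in the data may therefore be lower. DESeq2, limma and the permutation test were run on the same simulated counts, and their results are not given here. The 10 genes and the gene lists were chosen with earlier results of these data known. All 10 are named, and of each list the genes with an adjusted p under 0.05 and at most 3 per comparison that met the study's criterion, by smallest p. Alternatives were median-ratio factors, DESeq2 1.42.0, other filters, a fit over all 4 groups, a replicate block, a covariate for the Y-linked level, limma 3.58.1, permutation p-values and each library left out. The split by Y-linked transcripts was chosen after seeing the data. Figures were drawn with matplotlib 3.10.9.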

Additional observations from a re-analysis of the deposited data

Results flagged for a closer look

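Klf15 in treadmill replicate 2 stood apart from its group. It had 22.8 FPKM, and the nearest other treadmill library had 15.1 FPKM, a gap of 0.664 of the whole range of the group, above Dixon's 95% limit for 6 samples. It was the single such case among 40 groups examined, the 10 genes in 4 groups each, and chance gives about 1 in 20. Without this library Klf15 passed the adjusted threshold in both catgut groups against treadmill.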

How the results depend on the processing

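The main limits are 6 rats a group, counts that may not be single fragments, and classes of 2 to 4 rats. Of the 10 genes, the number with an adjusted p under 0.05 in catgut group 1 against treadmill, 1 in the report, was 2 with median-ratio factors or the Y-linked level as a covariate, 3 with DESeq2, and 0 with one fit over all 4 groups, with limma at a pseudocount of 0.1, with permutation p-values (too coarse to pass adjustment over all genes), and in either Y-linked class alone. It was 1 to 2 with a library left out. Over all genes, 9 passed with median-ratio factors, 16 with the covariate, 139 with DESeq2 and 4 with one fit over all 4 groups. In catgut group 2 against treadmill, 0 in the report, the number among the 10 was 3 with DESeq2 (309 of all genes), 2 with one fit over all 4 groups (54 of all genes) and 0 to 1 with a library left out. In catgut group 2 against control it was 1 with DESeq2 (695 of all genes). The number meeting the criterion in treadmill against control, 1 in the report, was 2 with DESeq2 or one fit over all 4 groups, 0 with limma at a pseudocount of 0.1 or permutation p-values, 0 to 3 with a library left out, 4 in libraries with Y-linked transcripts and 0 in those without. Over all genes, 466 met it with DESeq2, 469 with one fit, 437 with limma at a pseudocount of 0.1 and 352 with permutation p-values. In libraries with Y-linked transcripts 1455 of all genes met it, and in those without 449. With the Y-linked level as a covariate or limma at a pseudocount of 1 the number among the 10 stayed 1 but was Cdkn1a in place of Ddit4. In catgut group 2 against treadmill, 4 in the report, it was 2 in libraries without Y-linked transcripts (545 of all genes). In catgut group 1 against control, 0 in the report, it was 1 with DESeq2 or the Y-linked covariate, 0 to 1 with a library left out, 2 with and 3 without Y-linked transcripts. Over all genes, 658 met the criterion there with DESeq2, 652 with the covariate, 858 with and 577 without Y-linked transcripts. In catgut group 2 against control, 1 in the report, the number among the 10 was 1 to 2 with a library left out and 2 without Y-linked transcripts (840 of all genes). The cause of these changes was not tested.

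Same-numbered libraries did not deviate together (correlations of -0.45 to 0.27), so the numbers were not taken as pairs. With the replicate number as a block, 0 of the 10 genes had an adjusted p under 0.05 in catgut group 1 against treadmill (Tsc22d3 log2 fold change 0.91, adjusted p = 0.106, in a range of 4.33e-13 to 0.587 over the alternatives), and 1, Fkbp5, met the criterion in catgut group 1 against control. Under the same block the log2 fold change of Fkbp5 in catgut group 2 against treadmill was -0.19, and that of Ddit4 against control was 0.30 in catgut group 1 and 0.049 in catgut group 2. In treadmill against control the block left 1 gene by the criterion, Cdkn1a in place of Ddit4.

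Some small differences turned direction. Fkbp5 in catgut group 2 against treadmill was -0.14 with limma at a pseudocount of 1 and on the scale of the permutation test and -0.18 at 0.1, and ran from -0.14 to 0.24 with a library left out. Ddit4 against control in catgut group 1 was 0.35 with the Y-linked covariate, 0.23 with limma at a pseudocount of 1 and on the permutation scale, 0.27 at 0.1, 1.37 without Y-linked transcripts and -0.26 to 0.23 with a library left out. In catgut group 2 it was 0.44 with the Y-linked covariate, 4.27e-06 with limma at 0.1, 1.04 without Y-linked transcripts and -0.44 to 0.047 with a library left out. Ddit4 in treadmill against control was 0.075 without Y-linked transcripts. Sesn1 in treadmill against control was 0.10 with Y-linked transcripts and -0.14 to 0.061 with a library left out, and Fbxo32 there ran from -0.013 to 0.43. Trim63 in catgut group 2 against treadmill was -0.0039 without Y-linked transcripts, and Tsc22d3 in catgut group 1 against control was -0.061 with them.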
